A study of Mus musculus with 18 samples.

Results

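Interferon-stimulated genes are the genes that cells switch on when they sense interferon, and 44 of them were followed here through normal liver, tumour-bearing liver and liver tumours of WT and GKO mice. The 44 were taken by name from a fixed list, with the condition of a mean of at least 0.2 TPM over all samples, which none failed, and they are 44 of the 54838 genes in the expression table. The unit TPM, transcripts per 1000000, divides the reads of a gene by its length and scales each sample to the same sum. RNA-seq was done on 18 liver samples of male C57BL/6 mice, 3 in each of 6 groups. Tumours and the non-tumour tissue around them came from mice of 36 weeks that had received the liver carcinogen diethylnitrosamine (DEN) once, at 25 mg per kg on postnatal day 12. Normal livers came from mice of 36 weeks that received no DEN. GKO mice lack miR-181ab1, the microRNA cluster that encodes miR-181a-1 and miR-181b-1, in every cell of the body, and WT mice were their controls. Which tumours and non-tumour samples share a mouse is not in the labels, and nothing there says how many animals stand behind a sample, so that p-values measure only the spread between these samples.

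Type I interferons act through the receptor chains IFNAR1 and IFNAR2 and the kinases JAK1 and TYK2, which activate a complex with STAT2 and IRF9 that binds the interferon-stimulated response element (ISRE). Interferon gamma acts through IFNGR1, IFNGR2, JAK1 and JAK2, and its target genes carry the gamma-activated site (GAS). The induced genes block viral replication, sense foreign nucleic acid, load peptides onto MHC class I and recruit T cells, and in the liver hepatocytes, Kupffer cells and infiltrating leukocytes all respond.

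Promoter windows of RefSeq (GRCm38.p6, 250 bases before to 50 bases after a gene start) were found for 33 of the 44 members. The core of an ISRE, GAAA followed by any 2 bases and GAAA again, was searched on both strands and found in a window of 18 of these 33 members (54.5%), against 3.99% of all 27025 genes with a window. The letters TTCNNNGAA of a GAS, which read the same on both strands, lay in 9 of the 33 (27.3%), against 9.55% of all genes. Matches of both kinds were found in 5 members, Bst2, Oas1a, Igtp, Irgm2 and Gbp7, and in Bst2 the 2 kinds shared bases. The windows below are shown as examples, mostly of genes described further on, each read along the strand of its gene with 1 ISRE match in capitals. Isg15 (chr4:156200865-156200894, minus strand) had 3 matches, each overlapping the next, Oas1a had another that overlaps the one shown, and Ifit3 (chr19:34583363-34583392, plus strand) and its neighbouring copy Ifit3b (chr19:34607759-34607788, plus strand) had the same letters throughout. Ifit1, Ifit3 and Ifit3b each had another match that is not shown, and 9 members had 2 or more ISRE matches.
Isg15: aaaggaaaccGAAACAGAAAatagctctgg
Ifit1: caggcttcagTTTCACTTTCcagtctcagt
Ifit3: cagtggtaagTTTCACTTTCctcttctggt
Ifit3b: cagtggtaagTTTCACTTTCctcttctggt
Rsad2: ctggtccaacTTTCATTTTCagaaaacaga
Oas1a: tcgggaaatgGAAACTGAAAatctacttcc
Stat2: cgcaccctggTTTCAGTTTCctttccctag
Cxcl10: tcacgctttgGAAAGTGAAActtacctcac
Igtp: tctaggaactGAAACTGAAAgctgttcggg
Irgm2: tccaggaactGAAACTGAAAgctgttcggg

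The window of Ifit1 lies at chr19:34640775-34640804 (plus strand), that of Rsad2 at chr12:26456553-26456582 (minus), that of Oas1a at chr5:120907520-120907549 (minus) and that of Stat2 at chr10:128270266-128270295 (plus). The window of Cxcl10 lies at chr5:92349083-92349112 (minus), that of Igtp at chr11:58199512-58199541 (plus) and that of Irgm2 at chr11:58214903-58214932 (plus). By role, ISRE letters lay in 6 of the 7 immunity-related GTPases and guanylate-binding proteins with a window and in 0 of the 3 peptide-loading and immunoproteasome genes with one. Members with a GAS match and no ISRE match were Ifit2, Ifi35, Irf1 and Psmb8, and the windows of Irf1 (chr11:53769914-53769943, plus strand) and Psmb8 (chr17:34198088-34198117, plus strand) are shown with the GAS letters in capitals.
Irf1: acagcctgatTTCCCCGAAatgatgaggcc
Psmb8: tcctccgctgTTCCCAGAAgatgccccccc

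Neither set of letters was found in the windows of Cmpk2, Ifi44, Xaf1, Oasl1, Oasl2, Irf7, Irf9, Ifi47, Tap1, Psmb9 and Cxcl9, and this says only that the letters are not in those windows. Members without a window in the table were Mx1, Mx2, Ifi27, Rtp4, Oas2, Usp18, Dhx58, Zbp1, Iigp1, Tap2 and Parp14.

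The microRNAs of the deleted cluster bind messages through their seed, bases 2 to 8 of the mature strand. The same mature strands are also made from another cluster. The seed is one that miR-181a-5p (chr1:137966468-137966490, plus strand) and miR-181b-5p (chr1:137966650-137966673, plus strand) share. Both mature sequences are shown with the seed in capitals.
miR-181a-5p: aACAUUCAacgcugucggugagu
miR-181b-5p: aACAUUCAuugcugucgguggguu

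The complement of that seed, TGAATGT, lay in the longest annotated 3′ UTR of 5 of the 44 members (11.4%), against 2029 of the 11584 genes with such a UTR and a mean of at least 0.5 TPM (17.5%). The members were not held to that mean, and their UTRs were shorter, with a median of 815.5 bases against 1063 bases. The 5 were Cmpk2, Ifi44, Ifit2, Irf1 and Oas3, and the sites of Ifi44 (chromosome 3) and Ifit2 (chromosome 19) are shown with the seed match in capitals.
Ifi44: ccactggtTGAATGTattttcct
Ifit2: cacatgggTGAATGTtccatcct

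Several members lie side by side in the genome (mm10, the annotated gene bodies of GENCODE). Psmb9 (chr17:34181987-34187764), Tap1 (chr17:34187553-34197225), Psmb8 (chr17:34197721-34201454) and Tap2 (chr17:34203527-34216321) are neighbours within the MHC. Oas2 (chr5:120730333-120749853), Oas3 (chr5:120753098-120777661) and Oas1a (chr5:120896256-120907521) form one cluster, and Oasl2 (chr5:114896936-114912234) and Oasl1 (chr5:114923240-114937915) another. Cxcl9 (chr5:92321347-92328079) and Cxcl10 (chr5:92346638-92348889) are also neighbours. The annotated bodies of Igtp (chr11:58199556-58207591) and Irgm2 (chr11:58199618-58222782) overlap, and Ifit3 and Ifit3b are close copies, so that the reads of each pair may have been split or left uncounted.

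Before any comparison, WT tumour 3 and WT non-tumour 2 stood apart from their groups. WT tumours 1 and 2 were the most alike of the 18 sample pairs within groups (r = 0.982 over 13914 genes), while WT tumour 3 correlated with them at 0.919 and 0.921, the lowest values within any group. The median chi-square per gene between the reads of WT tumours 1 and 2 was 2.66, the lowest of the 18 pairs, and no pair of samples had identical values. WT non-tumour 2 correlated with the other WT non-tumour samples at 0.929 and 0.933, against 0.969 between those. WT normal 2, GKO normal 3 and WT tumour 1 had 16082, 16634 and 17685 genes above 0, fewer than the 18550 or more of every other sample. Mir181a-1 and Mir181b-1, the deleted genes, were listed at 0 in every sample but GKO tumour 3, where Mir181a-1 was at 1.40 TPM (1 read), and since all WT samples were at 0 these genes do not check the genotype labels. The depth, as reads on genes recovered from the TPM values, ran from 11925059 to 20751353 per sample. The 10 hepatocyte markers summed to between 127700 TPM in WT non-tumour 2 and 246500 TPM in GKO tumour 2, and none of them was at 0.

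The members together were highest in WT tumours 1 and 2. A score for each sample, the mean over the 44 members of log2(TPM + 1) minus the mean of the gene over all samples, was 0.65, 0.91 and 0.09 in WT tumours 1, 2 and 3 and -0.17, 0.19 and 0.35 in GKO tumours. It was 0.28, 0.18 and 0.17 in WT non-tumour samples and 0.11, -0.27 and -0.10 in GKO non-tumour samples. Normal livers had the scores -0.47, -0.29 and -0.50 in WT mice and 0.08, -0.71 and -0.49 in GKO mice. WT tumour 3 thus scored below all 3 WT non-tumour samples, and GKO normal 1 scored above every other normal liver. The summed level of the 44 members was 2456, 2653 and 1885 TPM in the WT tumours and 1441, 1568 and 1462 TPM in the GKO tumours. Of the 44 members, 19 had their highest value in WT tumour 2, 4 in each of WT tumour 3, GKO tumour 3, WT non-tumour 2 and GKO normal 1, and 3 in WT tumour 1. As a description, the median correlation over the 946 pairs of members across the 18 samples was 0.47, and 0.39 after the group means were subtracted. Dhx58, Rtp4 and Cmpk2 followed the mean of the other members most closely (r = 0.89, 0.89 and 0.87), and Mx2, Gbp7 and Ifi35 least (0.10, 0.11 and 0.12).

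**Figure D1:**
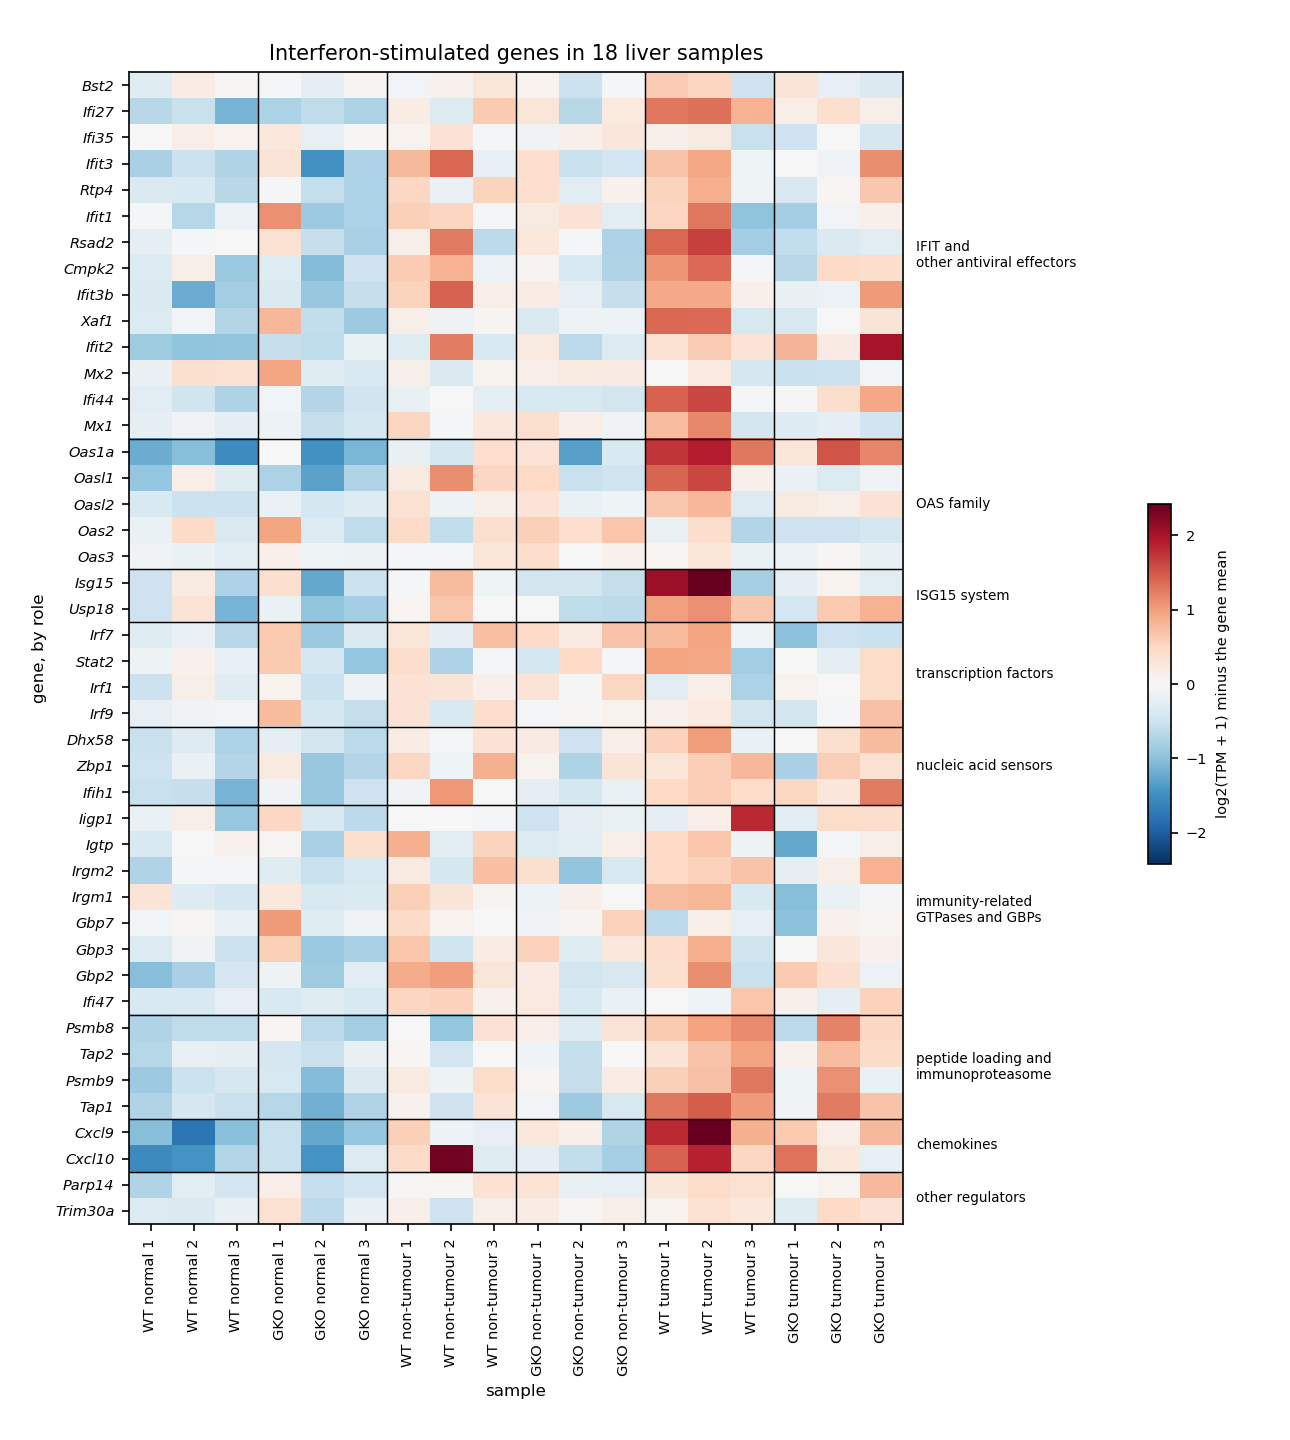
The 44 members in rows, by role, and the 18 samples in columns, by group, coloured by log2(TPM + 1) minus the mean of the gene over the 18 samples (red higher, blue lower). The columns of WT tumours 1 and 2 are red through most of the antiviral, OAS, ISG15 and chemokine rows, while WT tumour 3 is reddest in Iigp1, Oas1a and the peptide-loading rows and blue in Ifit1, Stat2, Rsad2 and Isg15.

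In tumours, 38 of the 42 members tested were lower in GKO than in WT samples and 4 were higher, and none passed the test. Members were tested with limma on log2(TPM + 1) across all genes whose mean TPM over the samples compared was 0.5 or more, and a gene was called at a Benjamini-Hochberg adjusted p below 0.05. In this comparison 0.0215% of the 13964 genes tested were called. The median log2 fold change of the members was -0.40, against 0.09 for all genes tested, and with single samples left out it ran from -0.60 (WT tumour 3) to -0.26 (WT tumour 2) and -0.21 (GKO tumour 1). At an unadjusted p below 0.05 there were 4 members, all lower in GKO (8.87% of all genes passed at that level, 3.49% as lower). In these 4, Ifi27, Irf7, Oasl1 and Cxcl9, the 3 GKO values also lay below the 3 WT values, as in 4.78% of all genes. In bulk tissue, fewer cells that express a gene and less RNA per cell cannot be told apart.

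Isg15 encodes a ubiquitin-like protein that interferon induces and that conjugating enzymes attach to other proteins. It stood at 242, 309 and 32.1 TPM in WT tumours 1, 2 and 3 and at 48.1, 60.2 and 47.4 TPM in GKO tumours. Non-tumour Isg15 was 55.9, 97.2 and 52.6 TPM in WT and 41.4, 41.7 and 37.9 TPM in GKO samples. Normal-liver Isg15 was 39.9, 66.5 and 33.6 TPM in WT and 74.4, 23.5 and 39.3 TPM in GKO mice. WT tumours 1 and 2 were the highest of all 18 samples, but WT tumour 3 was lower than every GKO tumour, so the tumour groups overlapped. The log2 fold change of Isg15 in GKO against WT tumours was -1.37 (SE 0.80), with a limma adjusted p of 0.658. Over the 13 alternatives it ran from -2.38 without WT tumour 3 (adjusted p = 0.0165) to -0.77 without WT tumour 2, with adjusted p up to 0.987. The first of these rests on WT tumours 1 and 2 alone, which correlated at r = 0.982 over genes, the highest value within any group. The labels do not name the mouse of each sample.

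Oasl1, an OAS-like protein known for holding back translation of Irf7, was highest in the same WT tumours 1 and 2. It stood at 16.3, 18.9 and 6.08 TPM in the WT tumours and 4.86, 4.22 and 5.14 TPM in the GKO tumours. Non-tumour Oasl1 was 6.63, 13.2 and 8.25 TPM in WT and 8.18, 3.52 and 3.66 TPM in GKO samples, and normal-liver Oasl1 was 2.43, 6.34 and 4.34 TPM in WT and 2.86, 1.67 and 2.93 TPM in GKO mice. All WT tumours lay above all GKO tumours, with WT tumour 3 near to them. Oasl1 had a log2 fold change of -1.23 (SE 0.40) in GKO tumours (limma adjusted p = 0.484), and of -1.70 without WT tumour 3 (adjusted p = 0.0275), again on WT tumours 1 and 2 alone.

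Irf7, the transcription factor that amplifies type I interferon, was at 50.7, 58.4 and 27.4 TPM in the WT tumours and 14.4, 20.6 and 19.9 TPM in the GKO tumours. Non-tumour Irf7 was 36.6, 24.8 and 49.4 TPM in WT and 41.1, 34.7 and 48.4 TPM in GKO samples. Normal-liver Irf7 was 24.0, 26.3 and 18.3 TPM in WT and 46.2, 15.3 and 23.1 TPM in GKO mice. GKO tumours were thus lower in Irf7 than any WT tumour and than any non-tumour sample. The log2 fold change against WT tumours was -1.22 (SE 0.33) with a limma adjusted p of 0.412.

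Ifi27, a small mitochondrial and nuclear-envelope protein, was at 644, 667 and 472 TPM in the WT tumours and 295, 351 and 292 TPM in the GKO tumours. Non-tumour Ifi27 was 302, 209 and 411 TPM in WT and 323, 166 and 314 TPM in GKO samples, and normal-liver Ifi27 was 166, 183 and 121 TPM in WT and 156, 173 and 155 TPM in GKO mice. WT tumours held the highest values of all groups, and its log2 fold change in GKO tumours was -0.91 (SE 0.23; limma adjusted p = 0.374). Cxcl9, a chemokine that draws CXCR3-bearing T cells, was at 21.4, 32.6 and 10.7 TPM in the WT tumours and 8.97, 6.24 and 10.2 TPM in the GKO tumours. Non-tumour Cxcl9 was 8.68, 4.95 and 4.64 TPM in WT and 6.73, 6.01 and 2.88 TPM in GKO samples, and normal-liver Cxcl9 was 2.15, 0.895 and 2.22 TPM in WT and 3.45, 1.73 and 2.38 TPM in GKO mice. The log2 fold change of Cxcl9 in GKO tumours was -1.15 (SE 0.40; limma adjusted p = 0.511).

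Leaving out WT tumour 3 brought 3 members past the threshold in this comparison while the calls among all genes went from 3 to 147, and leaving out any other tumour brought no member past it. With the replicate number as a block, no member was called and the 3 genes called among all genes became 0. T cell markers are given beside the chemokines because CXCL9 acts on T cells. The 12 T cell markers summed to 7.36, 30.4 and 4.18 TPM in the WT tumours and 9.79, 7.96 and 6.29 TPM in the GKO tumours, with Trbc2 the most abundant, and their part in the result was not tested. Other marker lists also differed in their medians, with no gene called. In GKO against WT tumours the median log2 fold change was 0.89 over 7 stellate cell and fibroblast markers, 6 of them higher. It was -0.80 over 4 plasmacytoid dendritic cell markers and -0.58 over 4 neutrophil markers, all lower. Without Ly6d, its most abundant gene, the plasmacytoid dendritic cell list summed to 3.96, 7.70 and 29.7 TPM in the WT tumours. In the GKO tumours this rest was 26.9, 1.67 and 1.12 TPM. Cox6a2 alone made 28.0 TPM of it in WT tumour 3 and 26.1 TPM in GKO tumour 1. Medians of this list, here and below, rest on few genes and are not read as a level of these cells. The medians of the other lists lay between -0.18 (T cells) and 0.21 (monocytes and recruited macrophages), and the part of these cells was not tested.

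**Figure D2:**
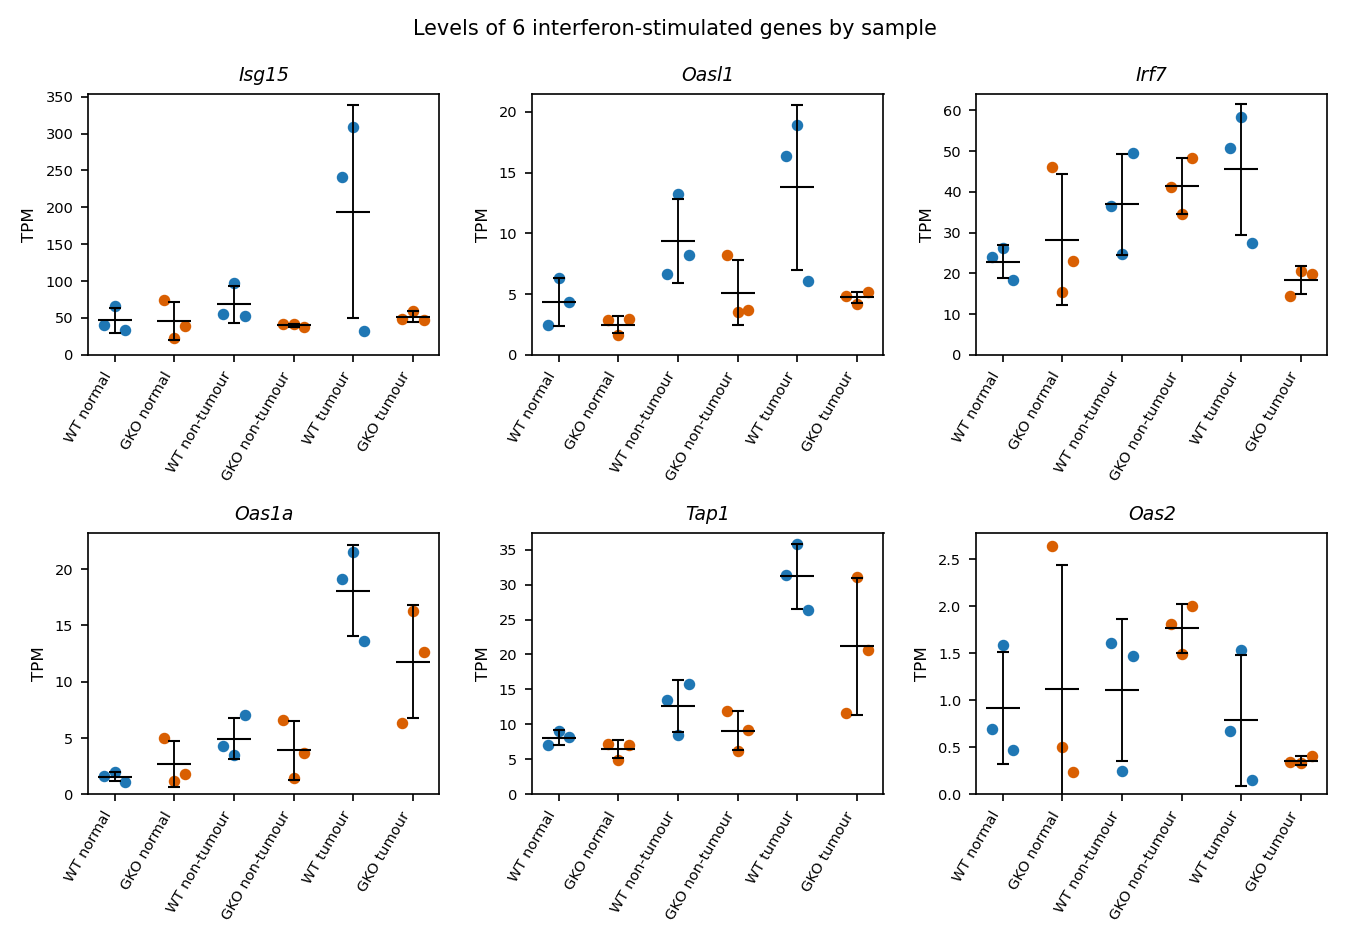
TPM of 6 members in the 6 groups (points are samples, with WT blue and GKO orange; the bar and whiskers are the mean ± SD of 3 samples). Isg15, Oasl1 and Irf7 are spread widely within WT tumours, Oas1a and Tap1 are higher in most tumours than in non-tumour samples, and Oas2 is between 0.330 and 0.411 TPM in the GKO tumours, below the GKO non-tumour samples.

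Among the other antiviral effectors, Bst2 (tetherin, which holds budding virus at the cell surface) was the most abundant member. Its tumour level was 835, 784 and 381 TPM in WT and 678, 474 and 427 TPM in GKO mice. Non-tumour Bst2 was 519, 579.9 and 666 TPM in WT and 579, 378 and 535 TPM in GKO samples, and normal-liver Bst2 was 442, 615 and 555 TPM in WT and 526, 464 and 569.6 TPM in GKO mice. The WT and GKO tumour groups overlapped, and the highest value was 2.21 times the lowest, the narrowest range but 1 among the members. Of the 14 antiviral effectors, 13 were lower in GKO tumours with a median log2 fold change of -0.47.

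Usp18, the protease that removes ISG15 and damps the type I receptor, was at 15.3, 16.6 and 11.9 TPM in the WT tumours and 5.08, 11.7 and 13.6 TPM in the GKO tumours. Non-tumour Usp18 was 7.42, 12.1 and 7.24 TPM in WT and 7.10, 4.35 and 4.27 TPM in GKO samples, and normal-liver Usp18 was 4.75, 9.24 and 2.75 TPM in WT and 6.36, 3.25 and 3.62 TPM in GKO mice. Unlike Isg15, it was higher in WT tumour 3 than in all non-tumour samples but WT non-tumour 2. Stat2, a subunit of the ISRE-binding complex, was at 45.1, 44.8 and 12.4 TPM in the WT tumours and 23.1, 19.4 and 31.6 TPM in the GKO tumours. Non-tumour Stat2 was 31.0, 13.3 and 22.3 TPM in WT and 16.7, 32.2 and 22.4 TPM in GKO samples, and normal-liver Stat2 was 20.9, 24.6 and 19.7 TPM in WT and 36.0, 16.7 and 11.48 TPM in GKO mice. Again WT tumours 1 and 2 were the highest and WT tumour 3 was among the lowest.

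The sensors Dhx58 (LGP2, which binds viral double-stranded RNA) and Zbp1 (which binds Z-form nucleic acid) were measured in every sample. Dhx58 was at 8.95, 12.6 and 5.09 TPM in the WT tumours and 5.89, 7.92 and 10.5 TPM in the GKO tumours. Non-tumour Dhx58 was 6.70, 5.61 and 7.71 TPM in WT and 6.83, 3.82 and 6.60 TPM in GKO samples, and normal-liver Dhx58 was 3.69, 4.47 and 3.02 TPM in WT and 4.82, 3.98 and 3.34 TPM in GKO mice. The tumour groups overlapped. Zbp1 was at 5.07, 6.56 and 7.67 TPM in the WT tumours and 1.90, 6.51 and 5.42 TPM in the GKO tumours. Non-tumour Zbp1 was 6.07, 3.64 and 8.02 TPM in WT and 4.27, 1.99 and 5.20 TPM in GKO samples, and normal-liver Zbp1 was 2.504, 3.44 and 2.04 TPM in WT and 4.78, 1.65 and 2.06 TPM in GKO mice. GKO tumour 1 had the lowest Zbp1 of the tumours.

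Immunity-related GTPases and guanylate-binding proteins act on the vacuoles of intracellular microbes. Iigp1 was at 137, 178 and 563 TPM in the WT tumours and 133, 218 and 214 TPM in the GKO tumours. Non-tumour Iigp1 was 159, 159 and 154 TPM in WT and 112, 136 and 143 TPM in GKO samples, and normal-liver Iigp1 was 143, 176 and 83.6 TPM in WT and 225, 124 and 103 TPM in GKO mice. WT tumour 3 held the highest Iigp1 of all samples, whereas it held the lowest Isg15 of the tumours. Igtp was at 46.0, 52.4 and 29.6 TPM in the WT tumours and 13.2, 31.9 and 35.7 TPM in the GKO tumours. Non-tumour Igtp was 59.8, 26.6 and 47.9 TPM in WT and 25.7, 27.1 and 35.8 TPM in GKO samples, and normal-liver Igtp was 25.0, 32.6 and 34.9 TPM in WT and 33.8, 18.4 and 43.0 TPM in GKO mice. GKO tumour 1 was the lowest sample for Igtp. All 7 tested members of the group had a lower mean in GKO than in WT tumours, with a median log2 fold change of -0.33. Ifi47 had a median of 3.5 reads per sample and was at 0 reads in some, so no fold is given for it.

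Parp14, an ADP-ribosyltransferase, was at 3.45, 4.003 and 3.76 TPM in the WT tumours and 2.69, 2.92 and 5.32 TPM in the GKO tumours. Non-tumour Parp14 was 2.75, 2.80 and 3.67 TPM in WT and 3.66, 2.26 and 2.23 TPM in GKO samples, and normal-liver Parp14 was 1.22, 2.10 and 1.67 TPM in WT and 3.13, 1.51 and 1.67 TPM in GKO mice. Its tumour groups overlapped. Trim30a, a tripartite-motif protein, was at 1.53, 2.07 and 1.85 TPM in the WT tumours and 0.948, 2.35 and 2.05 TPM in the GKO tumours. Non-tumour Trim30a was 1.60, 0.685 and 1.66 TPM in WT and 1.71, 1.43 and 1.63 TPM in GKO samples, and normal-liver Trim30a was 0.896, 0.876 and 1.12 TPM in WT and 2.11, 0.543 and 1.12 TPM in GKO mice. The median log2 fold change of these last members in GKO tumours was -0.06.

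Tumours were then compared as groups with the non-tumour livers of DEN-treated mice. Samples were not paired, since which of them share a mouse is not in the labels. Over both genotypes, 6 members rose in tumours and none fell, among the 42 tested, with 31 higher and 11 lower. Of all 14106 genes, 20.1% were called, 12.2% as higher. The median log2 fold change of the members was 0.22, against 0.08 for all genes tested, and it was 0.38 without WT tumour 3, 0.09 after centring each sample on its median and 0.13 with voom. The 6 were Oas1a, Tap1, Tap2, Ifi44, Cxcl9 and Usp18. This comparison and the following ones use the same tumours and non-tumour samples as the comparisons of genotype.

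Oas1a, which makes the messenger that activates RNase L, rose the most. It was at 19.1, 21.5 and 13.6 TPM in WT tumours against 4.33, 3.51 and 7.04 TPM in WT non-tumour samples. In GKO mice Oas1a was at 6.37, 16.3 and 12.7 TPM in tumours against 6.64, 1.42 and 3.69 TPM in non-tumour samples. The groups did not overlap in WT mice, and GKO tumour 1 lay below GKO non-tumour 1. Normal-liver Oas1a was 1.64, 1.97 and 1.12 TPM in WT and 4.998, 1.19 and 1.81 TPM in GKO mice. The log2 fold change in tumours over both genotypes was 1.57 (SE 0.29), a 2.97-fold rise with a limma adjusted p of 0.00358.

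Tap1 and Tap2 form the transporter that carries peptides to MHC class I. Tap1 was at 31.4, 35.7 and 26.4 TPM in WT tumours against 13.5, 8.52 and 15.8 TPM in WT non-tumour samples. In GKO mice Tap1 was at 11.6, 31.1 and 20.7 TPM in tumours against 11.9, 6.25 and 9.26 TPM in non-tumour samples. Normal-liver Tap1 was 7.05, 9.08 and 8.26 TPM in WT and 7.26, 4.96 and 7.12 TPM in GKO mice. All WT tumours and GKO tumours 2 and 3 lay above every non-tumour sample, whereas GKO tumour 1 lay among them. Tap1 rose with a log2 fold change of 1.17 (SE 0.24; limma adjusted p = 0.00617). Tap2 was at 20.5, 26.9 and 33.0 TPM in the WT tumours and 17.5, 27.8 and 22.8 TPM in the GKO tumours, against 16.8, 11.47 and 16.4 TPM in WT and 15.4, 10.6 and 16.5 TPM in GKO non-tumour samples. Normal-liver Tap2 was 9.70, 14.3 and 13.8 TPM in WT and 12.1, 10.9 and 14.2 TPM in GKO mice. Every tumour lay above every non-tumour sample, and Tap2 rose by a log2 fold change of 0.72 (SE 0.18; limma adjusted p = 0.0168).

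Psmb8, a catalytic subunit of the immunoproteasome, lies between these genes. It was at 52.5, 66.7 and 74.5 TPM in the WT tumours and 21.2, 78.3 and 47.7 TPM in the GKO tumours. Non-tumour Psmb8 was 33.0, 17.0 and 43.0 TPM in WT and 37.3, 26.5 and 41.8 TPM in GKO samples, and normal-liver Psmb8 was 19.7, 21.6 and 21.5 TPM in WT and 34.3, 20.8 and 18.4 TPM in GKO mice. GKO tumour 2 and WT tumour 3 were highest, but GKO tumour 1 was lower than every GKO non-tumour sample, and the limma adjusted p over both genotypes was 0.14 for a log2 fold change of 0.71. The 4 peptide-loading and immunoproteasome members had a median log2 fold change of 0.72, and 2 of them passed.

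Ifi44, a cytoplasmic protein of the antiviral response, was at 4.07, 4.77 and 0.850 TPM in WT tumours against 0.655, 0.879 and 0.624 TPM in WT non-tumour samples. In GKO mice Ifi44 was at 0.918, 1.52 and 2.60 TPM in tumours against 0.438, 0.437 and 0.385 TPM in non-tumour samples. Normal-liver Ifi44 was 0.577, 0.349 and 0.125 TPM in WT and 0.799, 0.162 and 0.345 TPM in GKO mice. It rose with a log2 fold change of 1.00 (SE 0.26; limma adjusted p = 0.0186) on counts of few reads, a median of 32.5 per sample, and by 1.69 with a pseudocount of 0.1 in place of 1. Cxcl9 rose by a log2 fold change of 1.12 (SE 0.30; limma adjusted p = 0.023) and Usp18 by 0.72 (SE 0.23; limma adjusted p = 0.0441). Usp18 was past the threshold in 6 of 19 alternative analyses, and Cxcl9 in 15 of 19. Without WT non-tumour 2, which stood apart, 10 members were called instead of 6, and 3797 of all genes instead of 2829.

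Cxcl10, the neighbour of Cxcl9 with the same receptor, did not pass the test. It was at 10.3, 14.3 and 4.98 TPM in the WT tumours and 9.56, 4.02 and 2.71 TPM in the GKO tumours. Non-tumour Cxcl10 was 4.86, 20.3 and 2.44 TPM in WT and 2.61, 1.81 and 1.43 TPM in GKO samples, and normal-liver Cxcl10 was 0.458, 0.550 and 1.57 TPM in WT and 1.90, 0.551 and 2.35 TPM in GKO mice. WT non-tumour 2 had the highest Cxcl10 of all 18 samples.

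Within WT mice alone, only Oas1a rose in tumours among 43 members tested, with a log2 fold change of 1.70 (SE 0.29; limma adjusted p = 0.0271), and 4.23% of all 14003 genes were called, 2.16% as higher. The median of the members was 0.25 and that of all genes -0.02, and the first was 0.078 without WT tumour 2 and 0.47 without WT tumour 3. The call of Oas1a was lost in 6 of 13 alternative analyses, with adjusted p between 0.0171 and 0.125 over them. Without WT tumour 3, 6 members were called, and none without WT tumour 1, WT tumour 2 or WT non-tumour 1. The calls among all genes moved with them, from 592 to 1363 without WT tumour 3 and to 182, 163 and 198 without the others in turn. In 7 members the WT tumours all lay above the WT non-tumour samples, Oas1a, Cxcl9, Ifi27, Tap1, Tap2, Psmb8 and Psmb9, as in 11% of all genes. In the same comparison all 7 Kupffer cell markers were lower (median -1.51). Of 7 endothelial markers 6 were higher (0.73), as were all 4 of plasmacytoid dendritic cells (1.33). The median was 0.71 over 4 cholangiocyte, 0.45 over 4 neutrophil and -0.50 over 7 stellate cell and fibroblast markers. Other lists lay between -0.17 (T cells) and 0.20 (hepatocytes). Tspan8 and Alb were called as higher, and the part of these cells was not tested.

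Within GKO mice, Oas2 and Irf7 fell in tumours and no member rose, among 42 tested, and 11.7% of all 14092 genes were called, 3.97% as lower. The median log2 fold change of the members was 0.25, near the 0.20 of all genes tested, and it was 0.10 without GKO tumour 3, 0.14 without GKO non-tumour 2, 0.012 with each sample centred on its median and 0.055 with voom. Oas2, a second enzyme that activates RNase L, was at 0.340, 0.330 and 0.411 TPM in GKO tumours against 1.81, 1.49 and 2.01 TPM in GKO non-tumour samples. In WT mice Oas2 was at 0.679, 1.53 and 0.153 TPM in tumours against 1.61, 0.248 and 1.48 TPM in non-tumour samples. Normal-liver Oas2 was 0.695, 1.59 and 0.474 TPM in WT and 2.64, 0.502 and 0.238 TPM in GKO mice. GKO tumours and GKO non-tumour samples did not overlap, and Oas2 fell with a log2 fold change of -1.02 (SE 0.18; limma adjusted p = 0.0173) at a median of 23.5 reads per sample. At so low a level the addition of 1 TPM shrinks the change, and voom on recovered reads gave -2.50 for Oas2 (adjusted p = 0.0092). Oas1a, from the same cluster, had a log2 fold change of 1.44 (SE 0.48) there and did not pass (limma adjusted p = 0.0897). Irf7, whose values are given above, fell with a log2 fold change of -1.14 (SE 0.24; limma adjusted p = 0.0284) and lost the call in 6 of 12 alternative analyses, including those without GKO non-tumour 1, 2 or 3 or without GKO tumour 1 or 3. The call of Oas2 was lost without GKO non-tumour 3 (adjusted p = 0.0878) and in a joint fit of the 18 samples (0.0728). Of 8 Kupffer cell markers 7 were lower in GKO tumours (median -2.07), as were all 8 of T cells (-0.43). So were 6 of 7 B and plasma cell markers (-0.96) and all 4 neutrophil markers (-0.90). Medians were positive for endothelial cells (0.28), monocytes and recruited macrophages (0.28) and cholangiocytes (0.91). Among the genes called were Marco, Timd4 and Trbc2 as lower and Pecam1 and Cdh5 as higher, and the part of these cells was not tested.

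The change from non-tumour liver to tumour was compared between genotypes by an interaction term, and no member was called among 42 tested, while 0.0142% of all 14106 genes were. Irf7 had an unadjusted p of 0.00979 (limma adjusted p = 0.417) for a difference of -1.42 (SE 0.46) on the log2 scale, and it was the only member under 0.05 unadjusted (2.57% of all genes were, in this direction). The members had a median difference of -0.19, against 0.23 for all genes tested, and the median changed sign without WT tumour 2 (0.033) or GKO tumour 1 (0.009) and was -0.39 without WT tumour 3 and -0.41 after centring.

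**Figure D3:**
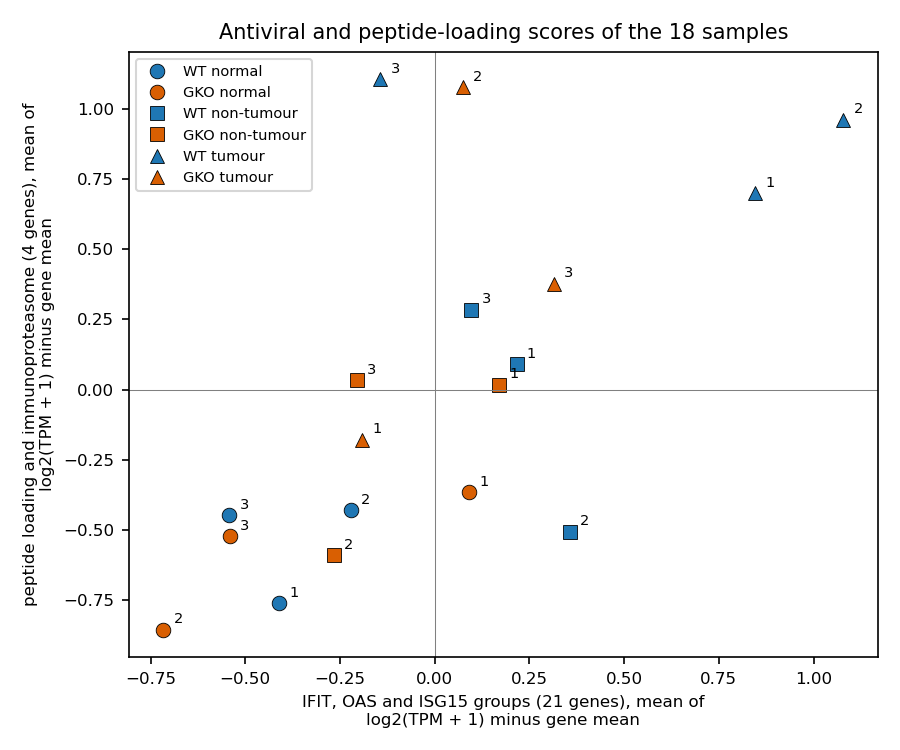
Each point is a sample, placed by its mean score over the 21 IFIT, OAS and ISG15-system members (x axis) and over the 4 peptide-loading and immunoproteasome members (y axis), as log2(TPM + 1) minus the mean of the gene, with WT in blue and GKO in orange, circles for normal liver, squares for non-tumour liver and triangles for tumours, and the number giving the replicate. WT tumour 3 and GKO tumour 2 sit high on the y axis (1.11 and 1.08) and near the middle of the x axis (-0.14 and 0.07), while WT tumours 1 and 2 are high on both.

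The antiviral and peptide-loading members were thus ordered differently across tumours. The score of the 21 IFIT, OAS and ISG15-system members was 0.85, 1.08 and -0.14 in WT tumours and -0.19, 0.07 and 0.31 in GKO tumours. The score of the 4 peptide-loading and immunoproteasome members was 0.70, 0.96 and 1.11 in WT tumours and -0.18, 1.08 and 0.38 in GKO tumours. WT tumour 3 ranked first of the 18 samples in the second score and below 4 of the other 5 tumours in the first.

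Non-tumour liver of DEN-treated mice was compared with normal liver of untreated mice. In WT mice 40 of 42 members were higher in non-tumour liver and 2 were lower, and none passed the limma test. Of all 13440 genes, 0.00744% were called. The median log2 fold change was 0.55 for the members and 0.33 for all genes tested, and with each sample centred on its median the members stood at 0.17. In 18 members the WT non-tumour samples all lay above the WT normal livers, and so did 31% of all genes. Unadjusted p values were below 0.05 for 17 members, all higher, against 22.4% of all genes. Gbp2, with a log2 fold change of 1.47 (SE 0.27), had the smallest (limma adjusted p = 0.114). Cxcl10 had the largest log2 fold change with all samples kept, 2.07 (SE 0.64; limma adjusted p = 0.145), with WT non-tumour 2 far above the other samples. Without WT non-tumour 2 the log2 fold change of Cxcl10 was 1.32, below that of Cxcl9. Several lists of cell markers were also higher in this comparison, again with none called. Their median log2 fold change was 1.20 over 4 monocyte and recruited macrophage markers, all higher, 0.77 over 7 Kupffer cell markers, 6 of them higher, and 0.48 over 7 endothelial markers, all higher. It was 2.12 over 2 plasmacytoid dendritic cell markers, 0.49 over 4 NK cell markers, 0.38 over 7 stellate cell and fibroblast markers and 0.26 over 7 T cell markers, but -0.21 over 7 B and plasma cell markers, and their part in the result was not tested.

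In GKO mice 36 of 41 members were higher in non-tumour than in normal liver and 5 were lower, with no call among the members and 0% of all 13530 genes called. Only Cxcl9 and Oasl1 had an unadjusted p below 0.05 (4.29% of all genes did, as higher), with log2 fold changes of 0.79 and 0.75. The median was 0.27 for the members and 0.08 for all genes tested, and the first was 0.085 without GKO normal 2, 0.52 without GKO normal 1 and 0.16 after centring. All 8 Kupffer cell markers (median 1.12), all 7 endothelial markers (0.35) and 7 of 8 T cell markers (0.58) were higher there too, and cholangiocyte markers were lower (4 of 4, -0.49), with none called and their part not tested.

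The genotypes were compared in the tissues outside tumours as well. In non-tumour livers 33 of 42 members were lower in GKO and 9 were higher, none was called, and 0% of all 13768 genes were. The median log2 fold change was -0.26 for the members and -0.15 for all genes tested, and the first was -0.17 without GKO non-tumour 2, -0.09 after centring and -0.13 with voom. Gbp2, Isg15, Ifit3b, Cmpk2 and Usp18 had an unadjusted p below 0.05, all lower in GKO (3.84% of all genes did as lower), with limma adjusted p of 0.643 each. In the same comparison the median log2 fold change was 0.60 over 8 Kupffer cell markers (7 higher in GKO), 0.65 over 4 neutrophil markers and 0.43 over 7 B and plasma cell markers (all higher), 0.25 over 9 T cell markers (8 higher) and -1.80 over 2 plasmacytoid dendritic cell markers, with none called and their part not tested. In normal livers 24 of 41 members were higher and 17 lower in GKO, with a median of 0.03 and none called (0% of all 13099 genes were), and 0 members had an unadjusted p below 0.05 (3.96% of all genes did). That median took either sign over the alternatives, from -0.18 without GKO normal 1 to 0.22 without GKO normal 2, and was -0.06 after centring. All 7 stellate cell and fibroblast markers were higher in GKO normal livers (median 0.74), as were 6 of 7 endothelial markers (0.53), with none called. Over all 3 tissues, 36 of 42 members were lower in GKO, none was called, 0% of all 13914 genes were, and the median was -0.22 against -0.002 for all genes tested. Oasl1 had the smallest unadjusted p there, 0.00112, and 4 members were below 0.05, all lower (2.95% of all genes were), with a log2 fold change of -0.87 (SE 0.22; limma adjusted p = 0.608).

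**Figure D4:**
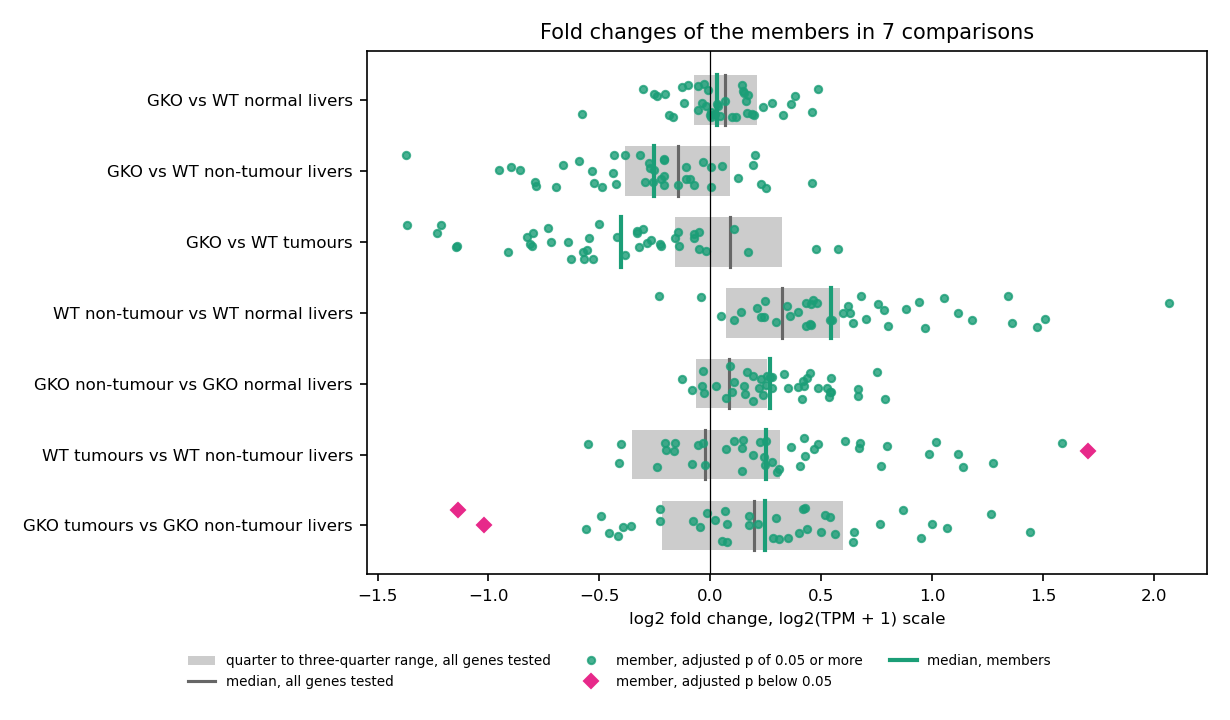
Log2 fold change of each tested member (green points) in 7 comparisons, with the median of the members (green line), the median of all genes tested (dark grey line) and the range from the first to the third quartile of all genes (grey band); pink diamonds passed at an adjusted p below 0.05. The members lie left of all genes in GKO against WT tumours (-0.40 against 0.09) and right of them in WT non-tumour against WT normal liver (0.55 against 0.33).

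Upstream of the members, interferon messages were listed at or near 0 reads. Of 21 interferon ligand genes, 16 were listed at 0 reads in all 18 samples, and the other 5 were Ifng, Ifnk, Ifnz, Ifnab and Ifna13. Ifng had 28 reads over 8 samples, at most 7 in any, and peaked at 0.658 TPM in WT tumour 2 and 0.635 TPM in GKO normal 3. Ifnk had 7 reads over 6 samples. The widely expressed nuclease Trex1 was also listed at 0 in all 18 samples, so a listed 0 is not read here as absence of the message. How overlapping or near-identical genes were counted was not tested.

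Of 11 receptor and JAK-STAT genes, 10 passed the filter over both genotypes, and Ifnlr1, a chain of the interferon lambda receptor, did not. Of the 10, 3 rose in tumours (Ifngr1, Jak1 and Ifngr2) and none fell, where 12.2% of all genes rose and 7.87% fell, and all 10 had a positive log2 fold change (median 0.42). Ifngr1, the ligand-binding chain of the interferon gamma receptor, was at 20.9, 22.2 and 40.7 TPM in the WT tumours and 26.5, 40.5 and 24.8 TPM in the GKO tumours. Non-tumour Ifngr1 was 8.46, 14.6 and 10.4 TPM in WT and 11.2, 5.74 and 7.15 TPM in GKO samples, and normal-liver Ifngr1 was 4.19, 6.56 and 7.44 TPM in WT and 6.66, 6.62 and 6.69 TPM in GKO mice. Tumours and non-tumour samples did not overlap in either genotype, with a log2 fold change of 1.52 (SE 0.24; limma adjusted p = 0.00136). Jak1, the kinase shared by both receptors, was at 23.3, 24.1 and 26.8 TPM in the WT tumours and 20.3, 25.0 and 25.4 TPM in the GKO tumours. Non-tumour Jak1 was 14.0, 16.2 and 17.2 TPM in WT and 15.99, 12.7 and 15.5 TPM in GKO samples, and it rose in tumours with a log2 fold change of 0.63 (SE 0.13; limma adjusted p = 0.00525). Ifngr2, the signalling chain, rose by 0.92 (SE 0.30; limma adjusted p = 0.0497), a call kept in 7 of 19 alternative analyses.

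**Figure D5:**
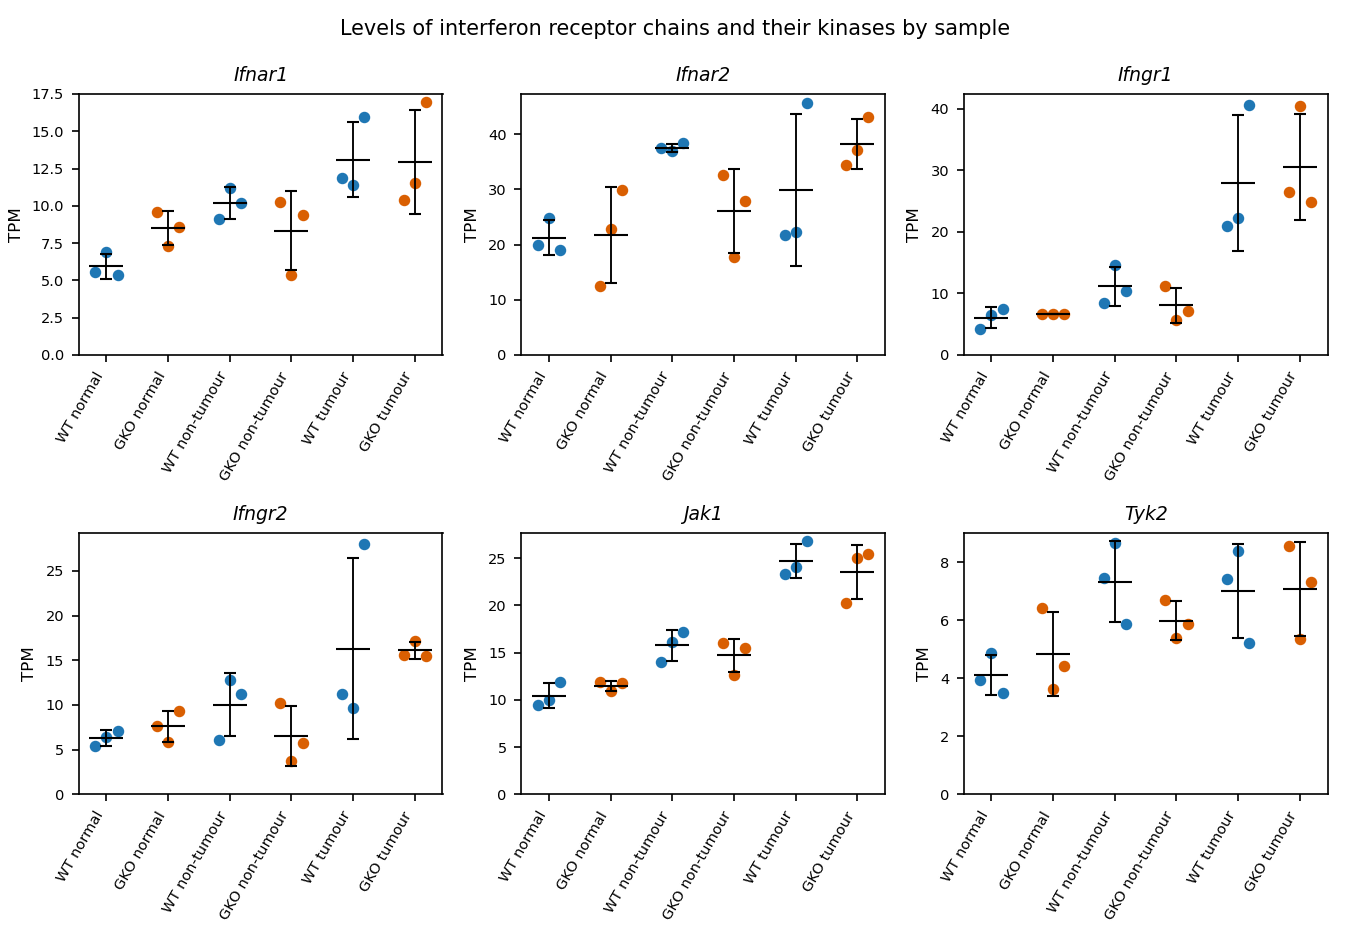
TPM of both chains of the type I receptor (Ifnar1, Ifnar2), both chains of the interferon gamma receptor (Ifngr1, Ifngr2) and 2 of their kinases (points are samples, with WT blue and GKO orange; the bar and whiskers are the mean ± SD of 3 samples). Ifngr1 and Jak1 are higher in all 6 tumours than in all other samples, from 20.9 to 40.7 TPM and from 20.3 to 26.8 TPM.

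Other genes of the pathway were read from lists, in the comparison of tumours with non-tumour liver over both genotypes. Of 44 further interferon-stimulated genes tested, 9 rose and 3 fell, where 12.2% of all genes rose and 7.87% fell. Lgals3bp, a secreted galectin-binding protein, rose by a log2 fold change of 1.35 (SE 0.27), Ube2l6, the conjugating enzyme of ISG15, by 1.06 (SE 0.23) and Mov10, an RNA helicase, by 0.67 (SE 0.15). Apol9b fell by 1.28 (SE 0.26) and Ifitm1, which blocks viral entry, fell by 1.54 (SE 0.34). The limma adjusted p was 0.00935 or less in these 5, and the median of the 44 was -0.02. Of 18 genes of MHC class I and antigen presentation, 6 rose and none fell, with a median of 0.55. H2-Q7, a class I gene, rose by 1.77 (SE 0.38; limma adjusted p = 0.00741) and H2-D1, a classical class I gene, by 0.96 (SE 0.24; limma adjusted p = 0.0156). The class I genes are close copies of each other, and reads may have been split among them. Of 10 negative regulators, Rnaseh2b rose and Rnaseh2c fell by 1.31 (SE 0.21; limma adjusted p = 0.00161), both subunits of RNase H2, with a median of 0.04 over the list. Of 12 sensing genes, Ikbke and Ticam1 rose (limma adjusted p = 0.0308 and 0.0458), in 8 and 5 of 19 alternative analyses, with a median of 0.09 over the list.

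Within GKO mice, 4 of 42 further interferon-stimulated genes rose in tumours and 2 fell, where 7.75% of all genes rose and 3.97% fell. Ly6e, a lipid-anchored surface protein, was at 449, 171 and 315 TPM in GKO tumours and 65.7, 30.7 and 52.7 TPM in GKO non-tumour samples, and rose by a log2 fold change of 2.58 (limma adjusted p = 0.014). That call was lost without GKO non-tumour 3 (limma adjusted p = 0.0575) and without GKO tumour 3 (0.0533). Of the 10 receptor and JAK-STAT genes, Ifngr1 and Ifngr2 rose in GKO tumours, and the call of Ifngr2 (limma adjusted p = 0.045) was lost in 7 of 12 alternative analyses, among them the replicate block (0.0567). The call of Ifngr1 was lost in 1 of 12, without GKO non-tumour 3 (limma adjusted p = 0.0714). Of 18 antigen-presentation genes H2-T22 rose in GKO tumours, of 12 sensing genes Ticam1, an adaptor of Toll-like receptors, rose, and of 10 negative regulators Rnaseh2c fell. In WT tumours none of the 10 receptor and JAK-STAT genes passed, of the 18 antigen-presentation genes H2-Q6 rose, and of 44 further interferon-stimulated genes Gbp10 fell, where 2.16% of all genes rose and 2.07% fell. None of these genes was called in the interaction of genotype and tissue. In the comparisons of GKO with WT tumours, non-tumour livers and normal livers no gene of these lists was called. In tumours the 43 further interferon-stimulated genes had a median log2 fold change of -0.06, against -0.40 for the 42 members.

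Markers of liver macrophages and other cells moved in the same comparisons. Of 8 Kupffer cell markers, Marco, Clec4f, Vsig4 and Timd4 fell in tumours over both genotypes (median -1.71), where 7.87% of all genes fell and 12.2% rose. Their sum, led by Clec4f, was 16.4, 47.6 and 48.7 TPM in the WT tumours and 16.6, 102.5 and 41.0 TPM in the GKO tumours. Non-tumour Kupffer marker sums were 198.5, 27.5 and 349 TPM in WT and 569, 102 and 222 TPM in GKO samples, and normal-liver sums were 95.9, 69.3 and 120.3 TPM in WT and 166.5, 62.3 and 76.2 TPM in GKO mice. WT non-tumour 2, which was high in Cxcl10, Rsad2 and Ifit3, thus had the lowest sum of the non-tumour samples. Of 6 monocyte and recruited macrophage markers tested none was called, and their sums, led by Lyz2, were 79.4, 129 and 47.0 TPM in the WT tumours and 107, 196 and 59.2 TPM in the GKO tumours. The 5 markers listed for plasmacytoid dendritic cells summed to 1481, 1636 and 198.5 TPM in WT tumours, 36.9, 434 and 306 TPM in GKO tumours and 997 TPM in WT non-tumour 2, but Ly6d alone made 1477, 1629 and 169 TPM of the first 3 and 994 TPM of the last, and Ly6d rose in tumours. No marker of these lists was at 0 in all samples, and the part of these cells in the results was not tested. Other lists moved in the same comparison. Of 7 endothelial markers Pecam1, Cdh5 and Kdr rose (list median 0.46). Of 7 stellate cell and fibroblast markers Col1a1 and Col3a1 rose while Dcn and Lrat fell (-0.58). Of 4 cholangiocyte markers Tspan8 rose (0.68), and of 10 hepatocyte markers Alb and Apoa1 rose while Apoa2 fell (0.41). No marker of T cells (8 tested, median -0.30), NK cells (5 tested, -0.28), B and plasma cells (7 tested, -0.46), neutrophils (4 tested, -0.05) or monocytes and recruited macrophages (6 tested, 0.08) passed, and the 3 tested markers of plasmacytoid dendritic cells had a median of 2.00. The part of these cell types was not tested either.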

How the data were processed

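RNA-seq of 18 liver samples, 3 in each of 6 groups, was used. The authors mapped reads to mm10 with STAR 2.7.3a, counted them on genes with featureCounts 2.0.0 and deposited TPM values, which sum to 1000000 per sample. With gene lengths of GENCODE vM21, matched for 54809 of 54838 genes, whole reads were recovered for 97.95 to 98.67% of values up to 30 reads (tolerance 0.02 reads), and depth was 11925059 to 20751353 reads per sample (median 16973797). No minimum number of reads was required, and TPM precision is lowest for genes with few reads.

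Genes whose mean TPM over the samples compared was 0.5 or more were tested on log2(TPM + 1) with limma 3.58.1 (lmFit and eBayes with trend) in R 4.3.3, with Benjamini-Hochberg adjustment over all genes tested and a threshold of 0.05. Fold changes are on this scale, which understates changes of low genes. The 10 comparisons share samples, and an exact permutation test of 3 against 3 cannot go below 0.1. Members and lists were chosen with earlier results of these data known. Values of every sample are given for the 2 members with the highest mean in each role group and for every member called, and of the other lists at most 5 called genes per comparison are named. The lists of cell markers, receptors, sensing genes, negative regulators, further interferon-stimulated genes and antigen presentation were described by counts, and most by medians in the comparison of tumours with non-tumour livers over both genotypes. Promoter windows and microRNA sequences came from RefSeq (GRCm38.p6).

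Alternatives were a pseudocount of 0.1, no filter, median centring, one fit of all 18 samples, the replicate number as a block, WT tumours 1 and 2 averaged, each sample left out, and voom on recovered reads, which was chosen after seeing the data. Deviations from the group means correlated weakly between same-numbered WT and GKO tumours (r = 0.101, 0.12 and 0.197). This pairing comes from the numbers in the labels. Differently numbered tumours were not correlated in this way, so the values have no reference. The block changed the calls among all genes in GKO against WT tumours from 3 to 0. In the other comparisons at least 1 of these correlations was 0.1 or less. The test code was checked on simulated data with large shifts and a spread reduced below that of most genes across the 18 samples. That check concerns the code and says nothing on power in these samples.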

Additional observations from a re-analysis of the deposited data

How the results depend on the processing

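Alternatives were run for part of the gene results given above, and none of those rerun reversed its direction. Cell markers were not rerun, nor were Psmb8 over both genotypes and Oas1a within GKO mice. Also not rerun were H2-T22, Ticam1 and Rnaseh2c within GKO mice and H2-Q6 and Gbp10 within WT mice. The median of the members did so in GKO against WT normal livers (0.03, and -0.06 with centring, -0.01 with voom and -0.18 to 0.22 with samples left out) and in the interaction (-0.19, and -0.39 to 0.03 with samples left out). In the other comparisons it kept its sign and ran, with samples left out, from -0.60 to -0.21 in GKO against WT tumours, -0.35 to -0.17 in non-tumour livers, 0.08 to 0.47 and 0.10 to 0.36 in tumours against non-tumour livers of WT and GKO mice, 0.15 to 0.38 over both genotypes, 0.09 to 0.52 in GKO non-tumour against normal livers and -0.33 to -0.15 over 3 tissues. Centring and voom gave 0.01 and 0.06 for GKO tumours against non-tumour livers (0.25), -0.09 and -0.13 for GKO against WT non-tumour livers (-0.26), 0.09 and 0.13 for tumours over both genotypes (0.22) and -0.41 and -0.36 for the interaction, and centring gave 0.16 for GKO non-tumour against normal livers (0.27). Averaging WT tumours 1 and 2 gave 0.16 for WT tumours against non-tumour livers (0.25) and -0.08 for the interaction. Of the gene results rerun, 768 values kept their side of the threshold, 87 lost the call and 4 gained it. In GKO against WT tumours 3 genes were called, which became 0 with a pseudocount of 0.1, without the filter, with median centring, with the replicate block, with WT tumours 1 and 2 averaged or with voom, 107 with all samples in one fit, and 0 to 147 with single samples left out (members 0 to 3). In GKO against WT non-tumour livers 1 gene was called in one fit. In WT tumours against non-tumour livers the 592 genes became 297 without the filter, 1649 in one fit, 361 with the block and 185 with averaging, and the 1 member became 0, 6, 0 and 0. Leaving out single samples gave 163 to 1363 genes and 0 to 6 members. In GKO tumours against non-tumour livers the 1652 genes became 589 without the filter and 2722 in one fit, and the 2 members 1 and 5. Leaving out single samples gave 229 to 1567 genes and 0 to 2 members. In WT non-tumour against normal livers the 1 gene became 4 with a pseudocount of 0.1, 0 without the filter, with the block or with voom, 46 in one fit and 0 to 4 with samples left out, and the median of the members, 0.55, became 0.67 with that pseudocount, 0.17 with centring and 0.48 to 0.67 with samples left out. In GKO non-tumour against normal livers 1 gene was called in one fit and 0 to 2 with samples left out. Over 3 tissues voom called 2 genes. Tumours against non-tumour livers over both genotypes gave 1867 to 3797 genes and 4 to 10 members with samples left out. The 2 genes of the interaction became 0 with a pseudocount of 0.1 or voom, 4 without the filter, 13 in one fit and 2 to 91 with samples left out. The median of all genes shifted by over 0.1 in WT non-tumour against normal livers (0.33), GKO tumours against non-tumour livers (0.20), GKO against WT non-tumour livers (-0.15) and the interaction (0.23). The causes were not tested. Members with few reads, such as Ifi47 and Oas3, are limited by depth.

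With the replicate number as a block, 5 members instead of 6 were called in tumours against non-tumour livers over both genotypes, 0 instead of 1 in WT tumours against non-tumour livers, and 2 as before in GKO mice.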
